A study of Mus musculus with 12 samples.

Results

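Smooth muscle cells, pericytes and activated fibroblasts (myofibroblasts) pull on their surroundings with bundles of actin and myosin, and they share a small set of genes that build and regulate those bundles. The 10 genes described here were taken by symbol from the deposited gene counts of 35727 Ensembl genes: the smooth muscle actins *Acta2* and *Actg2*, the smooth muscle myosin heavy chain *Myh11*, the regulatory myosin light chain *Myl9*, the tropomyosins *Tpm1* and *Tpm2*, the actin-binding proteins *Cnn1* (calponin 1), *Tagln* (SM22-alpha) and *Smtn* (smoothelin), and *Myocd* (myocardin), the coactivator that drives the others in smooth muscle. All 10 were present, and all 10 passed the filter on low counts that left 15506 genes for testing. *Myh11*, *Cnn1* and *Smtn* are widely used as markers of contractile smooth muscle, whereas *Acta2* and *Tagln* are also induced in fibroblasts that become myofibroblasts.

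The bulk RNA-seq compared neonatal mouse cardiac fibroblasts that received retroviral *Sox17* and *Erg* (Sox17-Erg samples) with fibroblasts labelled control, named in the count columns for the pMX retroviral backbone, at Day 3, Day 7 and 4 weeks. Each of the 6 groups had 2 libraries. The fibroblasts came from pooled hearts of newborn mice, were enriched on the surface protein THY1 and were kept in the endothelial medium EGM2 in both arms. For work on the reprogrammed cells the study also removed PECAM1-positive (endothelial) cells before that step, which its isolation protocol gives as optional, and whether the libraries described here had it is not given in the sources used here. The pooled source means that a library does not stand for 1 animal, and the labels do not say whether the 2 libraries of a group came from separate isolations, so p-values measure the spread between these libraries, which may be technical.

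Library totals ran from 19011635 to 41240449 estimated counts. *Sox17* stood at 0.42 CPM or less in every control library and between 432 and 1036 CPM in the Sox17-Erg libraries, and *Erg* at 2.27 CPM or less against 17.1 to 65.2, so the labels and the delivered genes went together. CPM here are counts scaled to a common library size with TMM factors. In the second control libraries of Day 3 and Day 7 the endothelial cadherin *Cdh5* was at 14.3 and 8.08 CPM, against 0.91 CPM or less in the other 4 control libraries, so these 2 libraries held more of this endothelial transcript. The 10 cardiac fibroblast markers followed here, *Thy1* and collagens among them, summed to between 12820 and 42010 CPM in the 12 libraries.

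In smooth muscle and myofibroblasts most contractile genes carry CArG boxes, short A/T-rich sites bound by serum response factor (SRF), which myocardin and the myocardin-related factors use as their platform on DNA. RefSeq promoter sequences (GRCm38.p6) were at hand for 6 of the 10 genes, *Acta2*, *Cnn1*, *Myl9*, *Smtn*, *Tpm1* and *Tpm2*. The 250 bases before the start sites of 3 of them are shown because their RNAs were among those that changed between the arms: *Acta2* (chr19:34255374-34255623, minus strand), *Myl9* (chr2:156775214-156775463, plus strand) and *Cnn1* (chr9:22099003-22099252, plus strand). Capitals mark matches, on either strand, to a CArG box (CC, 6 bases of A or T, GG) in which up to 1 core base may be G or C. The search covered 300 bases of each promoter, the 250 before the start site and the 50 that follow.
Acta2: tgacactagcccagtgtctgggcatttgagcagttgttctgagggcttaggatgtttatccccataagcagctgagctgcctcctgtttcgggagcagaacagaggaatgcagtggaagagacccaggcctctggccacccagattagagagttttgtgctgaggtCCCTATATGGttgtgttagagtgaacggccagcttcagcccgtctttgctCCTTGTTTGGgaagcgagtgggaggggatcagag
Myl9: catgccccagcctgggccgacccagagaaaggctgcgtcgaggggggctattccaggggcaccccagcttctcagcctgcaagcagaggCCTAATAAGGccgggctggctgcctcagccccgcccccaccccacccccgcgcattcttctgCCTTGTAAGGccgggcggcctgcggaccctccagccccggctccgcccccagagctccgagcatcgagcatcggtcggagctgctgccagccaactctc
Cnn1: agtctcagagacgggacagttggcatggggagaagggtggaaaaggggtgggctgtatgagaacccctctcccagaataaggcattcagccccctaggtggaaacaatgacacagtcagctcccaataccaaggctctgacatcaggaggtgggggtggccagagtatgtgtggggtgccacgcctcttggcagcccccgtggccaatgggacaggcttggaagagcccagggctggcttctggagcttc

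*Acta2* held 2 such matches, CCCTATATGG beginning 84 bases and CCTTGTTTGG beginning 34 bases before the start site. *Myl9* held CCTAATAAGG beginning at 161 bases, which fits the box with no G or C in its core, and CCTTGTAAGG beginning at 99 bases. None of the other 4 promoters, *Cnn1* included, held a match in this window, which says only that these letters do not occur there. The strict box stood in 1.63% of 32817 RefSeq promoters of 300 bases and the relaxed one in 9.99%, so a match in 2 of 6 promoters is a description and not a sign that the genes are bound.

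At Day 3 no contractile gene differed between Sox17-Erg and control samples past an adjusted p of 0.05 (edgeR quasi-likelihood test with Benjamini-Hochberg adjustment over all 15506 genes), while 12.3% of all genes tested did (7.19% higher and 5.13% lower). Of the log2 fold changes 6 were positive and 4 negative, with a median of 0.15 against 0.01 over all genes. *Cnn1* was the 1 gene under an unadjusted p of 0.05, and DESeq2 called 0. With the replicate number as a block within each time point, *Cnn1* was called higher (adjusted p = 0.026) and *Myh11* lower (adjusted p = 0.045) at Day 3. At Day 7 all 10 log2 fold changes were positive, with a median of 1.59 against 0.01 over all genes, and 5 genes were higher in Sox17-Erg samples: *Acta2*, *Cnn1*, *Myh11*, *Tpm1* and *Myocd*. The background of genes called higher was 9.48%. This count went from 1 to 7 when 1 library was left out, and was 8 with that block. At 4 weeks 5 genes were again higher, with *Myl9* in place of *Acta2*, where 11.9% of all genes were, and the median log2 fold change was 1.36. That count went from 2 to 6 when 1 library was left out, and was 8 with the same block. No gene of the 10 was lower at Day 7 or 4 weeks by edgeR, by DESeq2 or at an unadjusted p under 0.05, while edgeR called 7.93% and 11% of all genes lower. Both Sox17-Erg libraries lay above both control libraries for 7 of the 10 genes at Day 7, against 29% of all genes, and for 8 at 4 weeks, against 30.3%. *Cnn1*, *Myh11*, *Tpm1* and *Myocd* were called at both later time points, which 7.13% of all genes were. In bulk RNA a change of this kind can come from more cells that express a gene or from more RNA per cell, and these cannot be told apart.

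**Figure D1:**
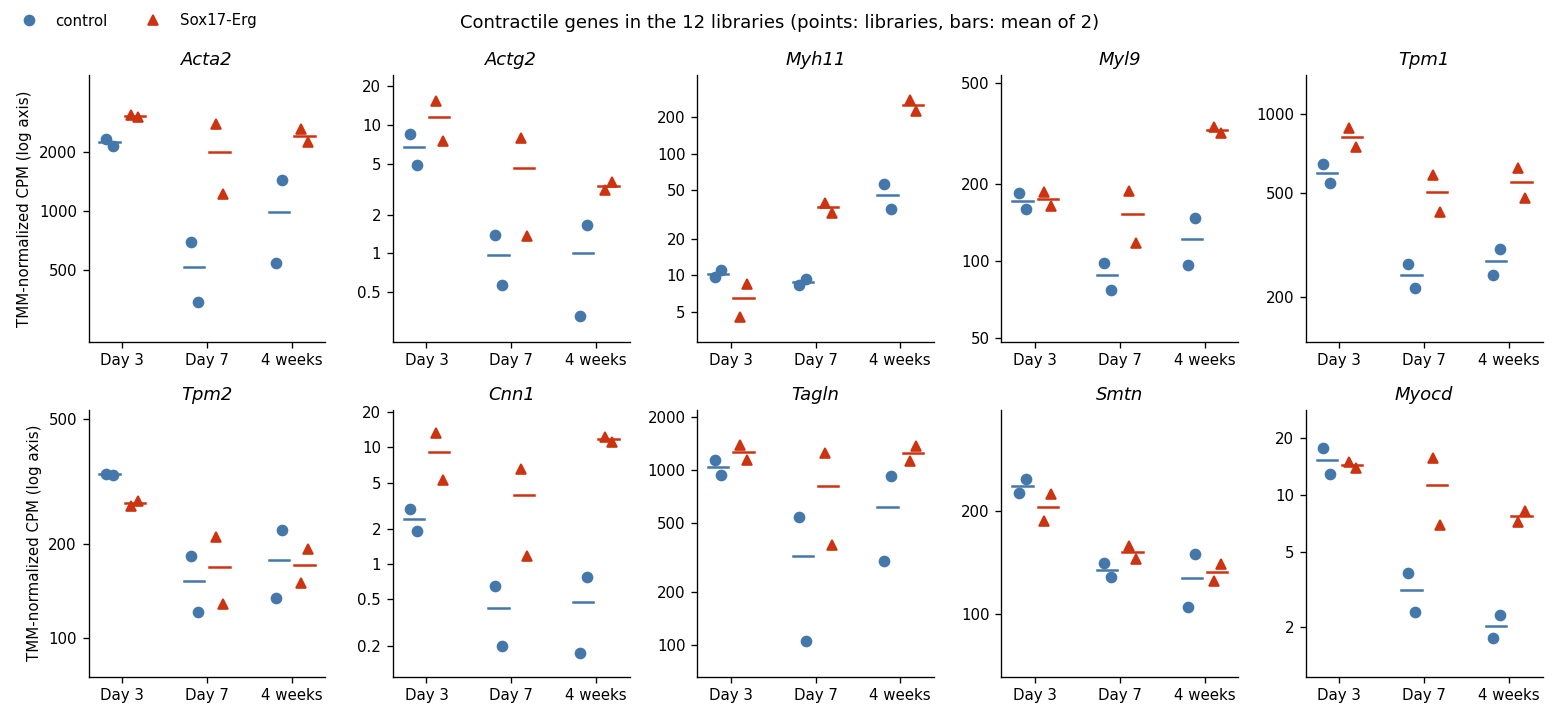
TMM-normalized CPM (log axis, with its own range in each panel) of the 10 contractile genes at Day 3, Day 7 and 4 weeks. Points are the 2 libraries of a group and bars their mean. The Sox17-Erg triangles lie above the control circles at Day 7 and 4 weeks for *Acta2*, *Myh11*, *Myl9*, *Tpm1*, *Cnn1* and *Myocd*, whereas *Tpm2* and *Smtn* run close together in both arms.

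*Acta2* (ENSMUSG00000035783, chr19:34241090-34255590), which encodes alpha smooth muscle actin and is the usual mark of a myofibroblast, was the most abundant of the 10 per length in all 6 groups. The control libraries read 2328 and 2142 CPM at Day 3, 698 and 347 CPM at Day 7, and 548 and 1435 CPM at 4 weeks. In the Sox17-Erg libraries it read 3085 and 3021 CPM, 2763 and 1224 CPM, and 2607 and 2239 CPM. The arms did not overlap at any time point. The log2 fold change was 0.45 ± 0.50 (SE) at Day 3 (adjusted p = 0.59), 1.93 ± 0.52 at Day 7, or 3.82-fold (adjusted p = 0.033), and 1.29 ± 0.51 at 4 weeks (adjusted p = 0.10). Without the second control library of Day 7 the Day 7 value was 1.51 (adjusted p = 0.18), and without the first Sox17-Erg library 1.23 (adjusted p = 0.24). The adjusted p was 0.052 to 0.056 without either control library of Day 3, the first Sox17-Erg library of Day 3 or either Sox17-Erg library of 4 weeks. The first 4-week control library was as low as those of Day 7 and the second was 2.62 times higher. With the replicate number as a block within each time point, the 4-week difference was 1.45 (adjusted p = 0.020). Over all 3 time points *Acta2* was 1.27 log2 units higher in Sox17-Erg samples, with an exact two-sided permutation p within time points of 0.0093, the smallest that the 216 arrangements allow. A gene whose arms lie apart in the same direction at all 3 time points always gets this p, so it restates the lack of overlap. Of all genes, 14.6% were higher without overlap at all 3 time points. The permutation test ignores the pairing of libraries by number. Swapping labels only within the pairs gave 0.031, the smallest that 64 arrangements allow.

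*Actg2* (ENSMUSG00000059430, chr6:83512905-83536265), the gamma actin of visceral smooth muscle, was scarce. Control libraries read 8.48 and 4.90 CPM at Day 3, 1.38 and 0.56 CPM at Day 7, and 0.33 and 1.67 CPM at 4 weeks, the last 2 being 13 and 41 counts. The Sox17-Erg libraries had 15.4 and 7.50 CPM, then 7.86 and 1.36 CPM, then 3.12 and 3.59 CPM. Every Sox17-Erg library exceeded the control library of the same number and time point, by 1.53 to 9.56 times. The log2 fold changes of 0.77 ± 0.81, 2.26 ± 0.91 and 1.82 ± 0.91 did not pass the test (adjusted p = 0.57, 0.12 and 0.18), and with the block within each time point those of Day 7 and 4 weeks were 2.04 and 2.03 (adjusted p = 0.029 and 0.023). From Day 3 to 4 weeks *Actg2* fell by 2.82 ± 0.92 log2 units in control samples (adjusted p = 0.049, not past the threshold with the replicate block over all libraries), and its log2 change was -1.77 ± 0.84 in Sox17-Erg samples (adjusted p = 0.14).

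*Acta2* and *Actg2* share coding sequence with the other actins: 1.39% of the 31-base words of *Acta2* and 1.21% of those of *Actg2* also occur in other genes. The striated muscle actin *Acta1* stayed under 1 CPM in all 12 libraries, and the cardiac actin *Actc1* was lower in Sox17-Erg samples at 4 weeks, with a log2 fold change of -3.28 ± 0.65 (adjusted p = 0.0066). The cytoplasmic actins *Actb* and *Actg1*, at 1857 CPM or more in each library, did not pass the test at any time point, with log2 fold changes of 0.08, 0.43 and 0.27 for *Actb* and of 0.25, 0.57 and 0.40 for *Actg1*.

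*Myh11* (ENSMUSG00000018830, chr16:14194535-14291372), the motor of smooth muscle, was low in both arms at Day 3, at 9.64 and 11.1 CPM in control and 4.56 and 8.45 CPM in Sox17-Erg libraries, the Sox17-Erg libraries being the lower ones. By Day 7 the control libraries still read 8.33 and 9.28 CPM, and the Sox17-Erg libraries read 39.6 and 32.7 CPM. At 4 weeks both arms had climbed, to 55.9 and 35.3 CPM in control and to 278 and 223 CPM in Sox17-Erg libraries. The log2 fold change thus went from -0.66 ± 0.30 at Day 3 (adjusted p = 0.18) to 2.04 ± 0.29 at Day 7 (4.10-fold, adjusted p = 0.0021) and 2.46 ± 0.29 at 4 weeks (5.49-fold, adjusted p = 0.00046). The Day 3 difference passed the test with the block within each time point, as a log2 fold change of -0.71 (adjusted p = 0.045). The Day 7 and 4-week calls held with each library left out in turn. By edgeR *Myh11* was the 1 contractile gene whose effect differed between time points: the difference between arms was 3.12 ± 0.41 log2 units larger at 4 weeks than at Day 3 (adjusted p = 0.0065), where 3.21% of all genes were called, and DESeq2 called *Myl9* and *Myocd* as well. Between Day 7 and Day 3 the effects differed by 2.70 ± 0.42 (adjusted p = 0.075), a difference that DESeq2 called, along with that of *Myocd*. Because the arms lay in opposite orders at Day 3 and later, the permutation test over all time points gave a p of 0.056 (0.12 within pairs).

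*Myl9* (ENSMUSG00000067818, chr2:156775420-156781658), the light chain whose phosphorylation switches smooth muscle myosin on, had overlapping arms at first. At Day 3 the control libraries read 185 and 159 CPM and the Sox17-Erg libraries 186 and 164 CPM. At Day 7 they read 98.3 and 77.1 CPM against 188 and 117 CPM, and at 4 weeks 96.8 and 147 CPM against 336 and 317 CPM. The log2 fold change was 0.02 ± 0.25, 0.80 ± 0.25 (adjusted p = 0.059) and 1.42 ± 0.26 (2.68-fold, adjusted p = 0.0042). With the block within each time point the Day 7 value was 0.77 (adjusted p = 0.017), and DESeq2 called it too (adjusted p = 0.018). Sox17-Erg samples had more *Myl9* at 4 weeks than at Day 3, by 0.90 ± 0.25 log2 units (adjusted p = 0.026). With *Myh11* it made up the 2 of the 10 that edgeR called higher in that comparison, as it did 15.1% of all genes. The change of *Cnn1* was positive too, at 0.35 ± 0.77, and was not called. *Mylk*, the kinase that phosphorylates this light chain, went the other way: it was lower in Sox17-Erg samples throughout, with log2 fold changes of -2.12 ± 0.52, -1.82 ± 0.51 and -1.87 ± 0.51 (adjusted p = 0.032, 0.037 and 0.027). *Mylk* stood at 545 and 601 CPM in the 4-week control libraries and at 145 and 168 CPM in the Sox17-Erg libraries.

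Of the tropomyosins, which lie along the actin filament and gate the access of myosin, edgeR called *Tpm1* between the arms and not *Tpm2*. *Tpm1* (ENSMUSG00000032366, chr9:67022590-67049406) read 644 and 549 CPM in control and 886 and 750 CPM in Sox17-Erg libraries at Day 3, 269 and 217 CPM against 588 and 425 CPM at Day 7, and 243 and 308 CPM against 624 and 479 CPM at 4 weeks. The arms did not overlap at any of the 3 time points. Its log2 fold change was 0.46 ± 0.22 (adjusted p = 0.20), 1.06 ± 0.22 (2.09-fold, adjusted p = 0.012) and 1.002 ± 0.22 (2.003-fold, adjusted p = 0.011). The exact permutation p of *Tpm1* was 0.0093 (0.031 within pairs), which restates the lack of overlap. Of all genes, 14.6% were likewise higher without overlap at all 3 time points. At Day 7 the value was 0.91 without the second control library (adjusted p = 0.086) and 0.81 without the first Sox17-Erg library (adjusted p = 0.099), and at 4 weeks it was 0.84 without the first control library (adjusted p = 0.088) and 0.79 without the first Sox17-Erg library (adjusted p = 0.090). *Tpm2* (ENSMUSG00000028464, chr4:43514711-43523765) read 334 and 332 CPM against 265 and 275 CPM, then 183 and 121 CPM against 209.9 and 128 CPM, then 135 and 221 CPM against 150.0 and 192 CPM. The arms overlapped at Day 7 and 4 weeks, and the log2 fold changes of -0.30 ± 0.30, 0.15 ± 0.30 and -0.06 ± 0.30 did not pass the test (adjusted p = 0.54, 0.76 and 0.92). Whether *Tpm1* and *Tpm2* differed from each other in their response was not tested.

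*Cnn1* (ENSMUSG00000001349, chr9:22099216-22109630), calponin 1, which binds actin and slows the myosin motor, had the largest fold changes of the 10 at all 3 time points and some of the lowest counts. Control libraries held 2.98 and 1.94 CPM at Day 3, 0.65 and 0.20 CPM at Day 7, and 0.18 and 0.77 CPM at 4 weeks, the last 4 being 17, 5, 7 and 19 counts. Sox17-Erg libraries held 13.2 and 5.21 CPM, 6.59 and 1.19 CPM, and 12.2 and 11.2 CPM. The arms did not overlap at any time point, and the second Sox17-Erg library of Day 7 (27 counts) lay below every Day 3 library. The log2 fold change was 1.89 ± 0.81 at Day 3 (adjusted p = 0.16), 3.19 ± 0.95 at Day 7 (9.11-fold, adjusted p = 0.047) and 4.72 ± 0.96 at 4 weeks (26.4-fold, adjusted p = 0.0075). With the block within each time point the Day 3 value was 1.81 (adjusted p = 0.026). Without the first control library of 4 weeks, the lowest of them, the 4-week value was 3.91 (adjusted p = 0.061), and without the first Sox17-Erg library of Day 7 the Day 7 value was 1.46 (adjusted p = 0.45). Without the second control library of Day 7 it was 2.59 (adjusted p = 0.23). The Day 7 call held without the second Sox17-Erg library of Day 7 or either control library of 4 weeks, and with any other library left out the adjusted p was 0.052 or more.

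*Tagln* (ENSMUSG00000032085, chr9:45929619-45936058), an early marker of both smooth muscle and myofibroblasts, did not pass the test at any time point. The control libraries read 1141 and 935 CPM at Day 3, 541 and 106 CPM at Day 7, and 302 and 928 CPM at 4 weeks. The Sox17-Erg libraries read 1383 and 1136 CPM, 1245 and 372 CPM, and 1133 and 1363 CPM. Each Sox17-Erg library was higher than the control library of its number and time, by 1.21 to 3.76 times, but the 2 libraries of a group differed by up to 5.10 times. The log2 fold changes were 0.28 ± 0.77, 1.32 ± 0.78 and 1.02 ± 0.78 (adjusted p = 0.84, 0.28 and 0.39). With the block within each time point those of Day 7 and 4 weeks were 1.51 and 1.23 (adjusted p = 0.013 and 0.025). *Tagln* shares 108 exonic bases with *Pcsk7* on the opposite strand. The libraries were made with a stranded kit, and the strand setting of the counting is not given in the sources used here.

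*Smtn* (ENSMUSG00000020439, chr11:3517523-3540612), a protein of contractile smooth muscle filaments, read 226 and 248 CPM in control against 188 and 224 CPM in Sox17-Erg libraries at Day 3, 141 and 128 CPM against 158 and 145 CPM at Day 7, and 105 and 149.6 CPM against 125 and 139.7 CPM at 4 weeks. The 12 values ran from 105 to 248 CPM, both ends in control libraries, and the level fell in both arms from Day 3. The log2 fold changes of -0.20 ± 0.17, 0.17 ± 0.17 and 0.06 ± 0.17 did not pass the test (adjusted p = 0.47, 0.53 and 0.85).

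*Myocd* (ENSMUSG00000020542, chr11:65176561-65269989), the smooth muscle and cardiac coactivator of SRF, had overlapping arms at Day 3, with 17.6 and 12.8 CPM in control and 14.9 and 13.9 CPM in Sox17-Erg libraries. It then dropped in control libraries, to 3.84 and 2.41 CPM at Day 7 and 1.75 and 2.32 CPM at 4 weeks. Sox17-Erg libraries read 15.7 and 6.94 CPM at Day 7 and 7.22 and 8.19 CPM at 4 weeks. The lowest Sox17-Erg library of the later time points was thus above the highest control library. The log2 fold change was -0.08 ± 0.36 (adjusted p = 0.91), 1.86 ± 0.38 (3.63-fold, adjusted p = 0.011) and 1.93 ± 0.39 (3.81-fold, adjusted p = 0.0074). Leaving out the second control library or the first Sox17-Erg library of Day 7 gave 1.56 and 1.15 there (adjusted p = 0.080 both times), and leaving out the first control library of 4 weeks gave 1.73 (adjusted p = 0.066).

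**Figure D2:**
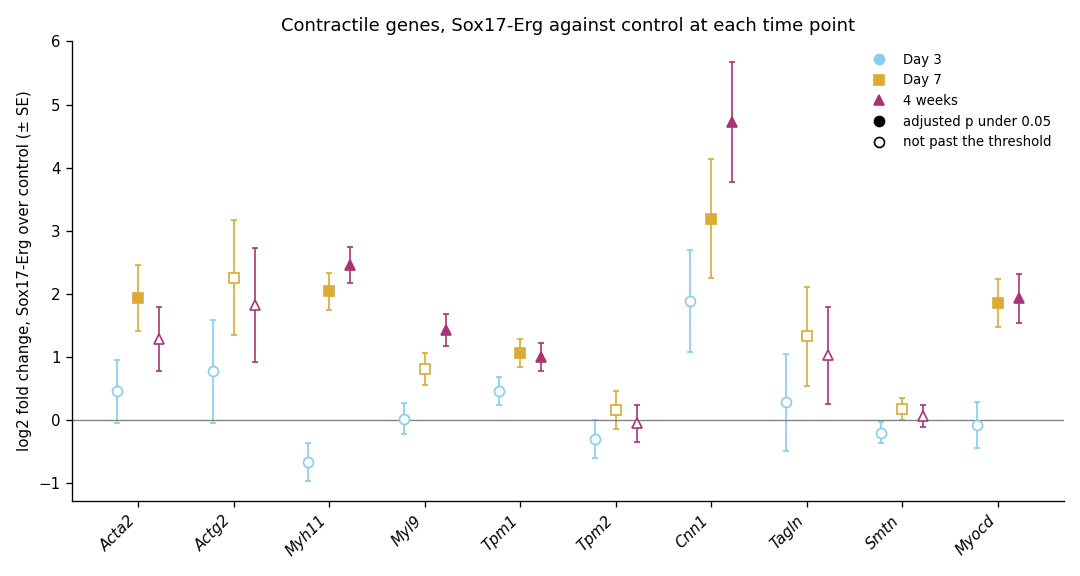
Log2 fold change of Sox17-Erg over control samples (vertical axis, ± SE of the edgeR fit) for each contractile gene at Day 3 (circles), Day 7 (squares) and 4 weeks (triangles). Filled symbols passed an adjusted p of 0.05. No Day 3 symbol is filled, 5 are filled at each later time point, and *Tpm2* and *Smtn* stay near 0 throughout.

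Between Day 3 and Day 7 the levels of the contractile genes differed in control samples. All 10 genes had lower levels in the Day 7 control libraries than in those of Day 3, with no overlap between the time points, a non-overlap that 28.6% of all genes showed in that direction. Of these, 5 passed the test, where 4.06% of all genes were called lower: *Myocd* fell by 2.28 ± 0.39 log2 units (adjusted p = 0.013), *Acta2* by 2.10 ± 0.52 (adjusted p = 0.040), *Tpm1* by 1.30 ± 0.22 (adjusted p = 0.013), *Myl9* by 0.97 ± 0.25 (adjusted p = 0.046) and *Smtn* by 0.82 ± 0.17 (adjusted p = 0.024). With any 1 of 3 control libraries left out (either of Day 3 or the second of Day 7) none of the 10 passed. In Sox17-Erg samples, over the same days, 9 of the 10 log2 changes were negative and each was smaller in size than in control samples, and the median log2 change was -0.63 against -1.49 in control samples. None of these 9 passed edgeR's test, where 1.38% of all genes were called lower, while 2 had an unadjusted p under 0.05 and DESeq2 called 1. *Myh11* rose in Sox17-Erg samples by 2.47 ± 0.30 (adjusted p = 0.014, with 2.04% of all genes called higher), a call that was lost without the first Sox17-Erg library of Day 3. The differences between the arms' changes from Day 3 to Day 7 were all positive and had a median of 1.17, yet edgeR called 0 of them, against 0.0838% of all genes. By an unadjusted p under 0.05, and by DESeq2, 2 did.

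From Day 3 to 4 weeks control samples lost *Myocd* (log2 change -2.91 ± 0.40, adjusted p = 0.0014), *Actg2*, *Tpm1* (-1.11 ± 0.22, adjusted p = 0.0074) and *Smtn* (-0.89 ± 0.17, adjusted p = 0.0064), with 12.6% of all genes called lower, and gained *Myh11* (2.14 ± 0.29, adjusted p = 0.0015), with 13.9% called higher. Sox17-Erg samples gained *Myh11* (5.26 ± 0.33, 38.3-fold, adjusted p = 9.3e-05) and *Myl9*, with 15.1% called higher, and lost *Smtn* (-0.64 ± 0.17, adjusted p = 0.022), with 15.6% called lower. *Acta2* in Sox17-Erg samples changed by -0.33 ± 0.50 over the 4 weeks and *Tagln* by -0.01 ± 0.77. From Day 7 to 4 weeks *Myh11* was the 1 gene edgeR called in either arm (DESeq2 added *Myl9* in Sox17-Erg samples), with a rise of 2.37 ± 0.30 in control samples (adjusted p = 0.018, 0.174% of all genes called higher) and of 2.79 ± 0.29 in Sox17-Erg samples (adjusted p = 0.0044, 1.15% called higher). The control rise was not called without the first 4-week control library or without either Day 7 control library. For no contractile gene did edgeR call a difference between these last changes, where 0.0387% of all genes were called. None had an unadjusted p under 0.05, and DESeq2 called 0.

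**Figure D3:**
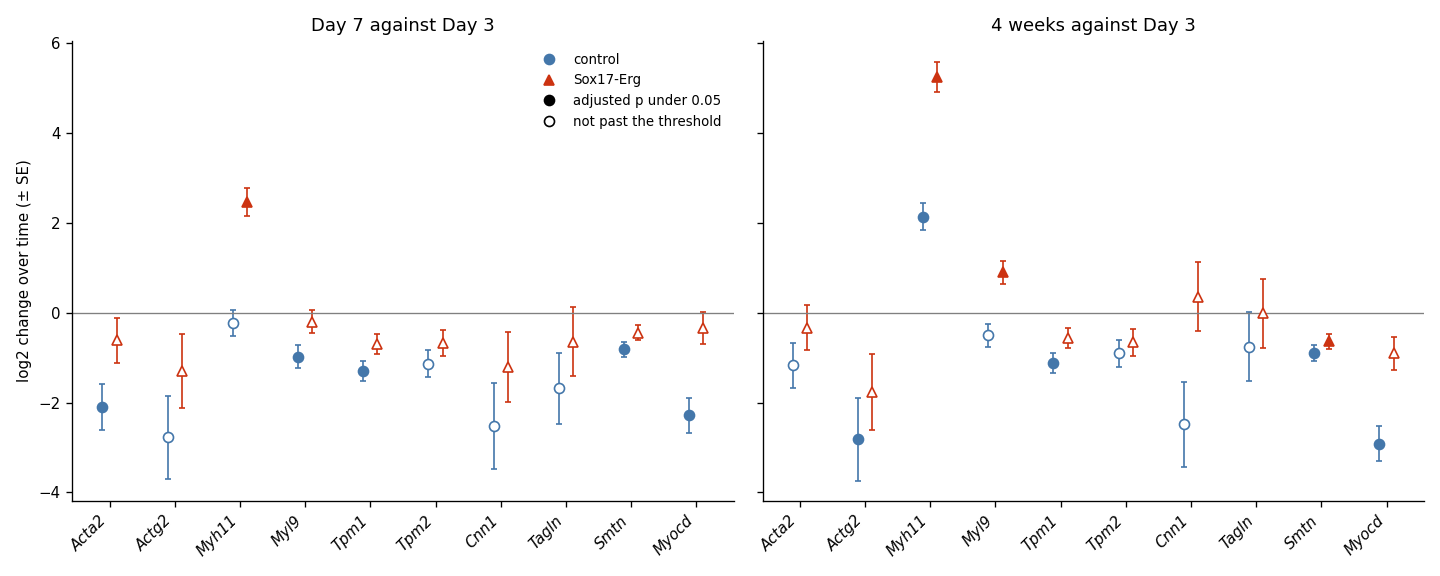
Log2 change from Day 3 to Day 7 (left) and from Day 3 to 4 weeks (right) of each contractile gene in control (circles) and Sox17-Erg samples (triangles), ± SE of the edgeR fit. Filled symbols passed an adjusted p of 0.05. Control symbols lie below 0 for all genes on the left, and *Myh11* in Sox17-Erg samples rises to 5.26 on the right.

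Compared per kilobase of exon, *Acta2*, *Tagln* and *Myl9* had the 3 highest mean levels of the 10 genes, in that order, in every group, and the ranks below them differed between groups. At Day 3 control samples had mean levels of 1018 ± 59.6 (SD, n = 2), 522 ± 73.4 and 148 ± 15.9 CPM per kb for these 3, followed by *Tpm2*, *Tpm1* and *Smtn* between 114 and 54.0, and by *Actg2*, *Myocd*, *Myh11* and *Cnn1* between 4.30 and 0.90 CPM per kb. *Acta2* and *Tagln* overlapped each other's libraries in control samples at Day 7 and 4 weeks and in Sox17-Erg samples at Day 7. *Tagln* also overlapped *Myl9* in control samples at Day 7, where its second library, at 53.3 CPM per kb, lay below both *Myl9* libraries (84.6 and 66.4 CPM per kb). *Myh11* ranked 10 in Sox17-Erg samples at Day 3, with 0.86 ± 0.36 CPM per kb, and 6 at 4 weeks, with 33.0 ± 5.09 CPM per kb, where its libraries overlapped those of *Smtn*. Over the same time *Actg2* went from rank 7 to rank 9, *Smtn* from 6 to 7 and *Myocd* from 9 to 10.

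Over the 12 libraries, with each gene's log2 CPM centred on its mean, the 5 genes nearest to *Acta2* among those tested included *Asns*, *Mthfd2*, *Aldh18a1* and *Ankrd1*, at root mean square differences of 0.29, 0.30, 0.33 and 0.35 log2 units, where the median gene was at 1.09. Among the 10 themselves, *Smtn* and *Tpm2* were the closest pair at 0.22, followed by *Acta2* and *Tagln* at 0.39. These differences share the libraries and their depth and are a description. At Day 7 the second library was below the first for all 10 genes in Sox17-Erg samples and for all but *Myh11* in control samples.

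The wider contractile apparatus moved in both directions. Of 36 further actin, myosin and actin-binding genes, the Day 3 comparison called 2 higher and 6 lower, that of Day 7 called 7 higher and 4 lower, and that of 4 weeks 10 higher and 5 lower, with median log2 fold changes of -0.03, 0.23 and 0.28. Over all genes the shares called higher at these time points were 7.19%, 9.48% and 11.9%, those called lower were 5.13%, 7.93% and 11%, and the medians were 0.01, 0.01 and -0.01. *Lmod1*, leiomodin 1, which nucleates smooth muscle actin filaments, went from a log2 fold change of -0.93 ± 0.24 at Day 3 (adjusted p = 0.041) to 1.43 ± 0.25 at 4 weeks (adjusted p = 0.0035). Higher at Day 7 and 4 weeks were the non-muscle myosin *Myh9* (1.20 and 1.25, adjusted p = 0.0043 and 0.0025) and *Tagln2* (1.22 and 0.97, adjusted p = 0.023 and 0.042). The actin-linked adaptor *Pdlim7* was higher at all 3 time points (0.69, 1.003 and 1.10, adjusted p = 0.048, 0.0086 and 0.0039). Lower were the integrin *Itga8* at Day 3 (-3.33, adjusted p = 0.0052) and Day 7 (adjusted p = 0.019), and desmin, *Des*, the intermediate filament of muscle, at Day 7 and 4 weeks (-2.20 and -1.90, adjusted p = 0.015 and 0.018).

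Among 15 genes of SRF, its cofactors and their antagonists, 3 higher and 2 lower genes were called at Day 3, 5 higher and 2 lower ones at Day 7, and 6 higher and 3 lower ones at 4 weeks. The median log2 fold changes were -0.06, 0.17 and 0.07, and the shares of all genes called were 7.19% higher and 5.13% lower, 9.48% and 7.93%, and 11.9% and 11%. *Srf* itself was higher at Day 7 and 4 weeks by small amounts, 0.49 ± 0.14 and 0.58 ± 0.14 (adjusted p = 0.040 and 0.015). *Mrtfb*, a myocardin-related coactivator that responds to the state of actin, was higher at all 3 time points, by 0.68 ± 0.12, 1.22 ± 0.12 and 1.44 ± 0.12 (adjusted p = 0.012, 0.00042 and 9.3e-05), while its relative *Mrtfa* gave log2 fold changes of -0.06, -0.04 and -0.16 (adjusted p = 0.76, 0.81 and 0.34). The LIM-domain cofactor *Csrp2*, a smooth muscle protein, reached the largest log2 fold change of these 15 (2.03, 3.16 and 4.25, adjusted p = 0.0016, 0.00012 and 1.8e-05). The Krüppel-like factors, known to hold back or remodel the contractile state of smooth muscle, were higher as well: *Klf5* at all time points (3.23, 4.22 and 3.04, adjusted p = 0.0017, 0.00029 and 0.00061) and *Klf4* at 4 weeks (2.51, adjusted p = 0.00041). *Gata6*, a factor of quiescent smooth muscle, was lower at Day 7 and 4 weeks (-1.11 and -1.16, adjusted p = 0.0034 and 0.0018). *Fhl2* was lower at Day 3 (-1.45, adjusted p = 0.042) and the cGMP-dependent kinase *Prkg1* at Day 3 and 4 weeks (-1.31 and -0.82, adjusted p = 0.0083 and 0.021).

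TGF-beta signalling, the main inducer of *Acta2* in fibroblasts, was followed through 14 genes, with 3 of them called higher and 1 lower at Day 3, 5 called higher and 3 lower at Day 7, and 4 called higher and 3 lower at 4 weeks. The shares of all genes were 7.19% and 5.13%, 9.48% and 7.93%, and 11.9% and 11%, and the medians of the list were 0.24, 0.19 and 0.12. The ligand *Tgfb2* was higher at Day 7 and 4 weeks (1.98 ± 0.30 and 3.32 ± 0.32, adjusted p = 0.0027 and 0.00015) and *Tgfb1* at 4 weeks (1.31 ± 0.20, adjusted p = 0.0018). On the receptor side, the co-receptor *Tgfbr3* was lower throughout (-2.25, -2.44 and -2.45, adjusted p = 0.018, 0.0077 and 0.0054) and *Tgfbr1* was lower at Day 7 and 4 weeks (-0.89 both times, adjusted p = 0.00097 and 0.00059), with the transducer *Smad3* (-0.72 and -0.69, adjusted p = 0.0067 and 0.0057). The inhibitor *Skil*, itself a target of the pathway, was higher at all 3 time points (1.03, 1.32 and 1.02, adjusted p = 0.0042, 0.00059 and 0.0013).

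Markers of pericytes and other mural cells, which wrap blood vessels and use the same contractile genes, moved with the Sox17-Erg arm. Of the 10 markers, edgeR called 4 higher in Sox17-Erg samples at Day 3 (7.19% of all genes), 5 higher at Day 7 (9.48%), and 6 higher (11.9%) and 2 lower (11%) at 4 weeks, with medians of 0.85, 1.69 and 2.24. Their summed level was 649.6 to 854 CPM in the 6 control libraries and 1064 to 1862 CPM in the 6 Sox17-Erg libraries, without overlap. Most of the control sum was *Pdgfrb*, with group means of 476.5, 603.6 and 701.4 CPM in control and 492.8, 673.1 and 650.4 CPM in Sox17-Erg samples. *Notch3* and *Mcam* had the largest gains in CPM. At 4 weeks their means were 62.7 and 4.93 CPM in control and 564.6 and 270.2 CPM in Sox17-Erg samples. *Rgs4*, an inhibitor of G protein signalling found in pericytes, had log2 fold changes of 2.24, 4.58 and 6.08 (adjusted p = 0.002, 5e-05 and 8e-06). *Mcam*, an adhesion molecule of pericytes and also of endothelial cells, had 2.51, 4.92 and 5.80 (adjusted p = 0.015, 0.00064 and 0.0002), *Notch3*, the Notch receptor of mural cells, 1.19, 2.70 and 3.17, and *Cspg4*, the NG2 proteoglycan, 0.29, 2.56 and 3.64 (adjusted p = 0.63, 0.0022 and 0.0003). For *Cspg4* and *Mcam* the control arm fell over time, *Cspg4* from 146 and 156 CPM at Day 3 to 8.04 and 9.52 CPM at 4 weeks, while the Sox17-Erg libraries of 4 weeks held 97.0 and 122 CPM. The list was not uniform. *Pdgfrb*, a growth factor receptor of pericytes that was also abundant in the control fibroblasts, did not pass the test at any time point (0.05, 0.16 and -0.11). The channel genes *Kcnj8* and *Abcc9* were lower at 4 weeks (-2.34 and -2.33, adjusted p = 0.040 and 0.0018). What share of the contractile genes' differences goes with mural-like cells was not tested.

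**Figure D4:**
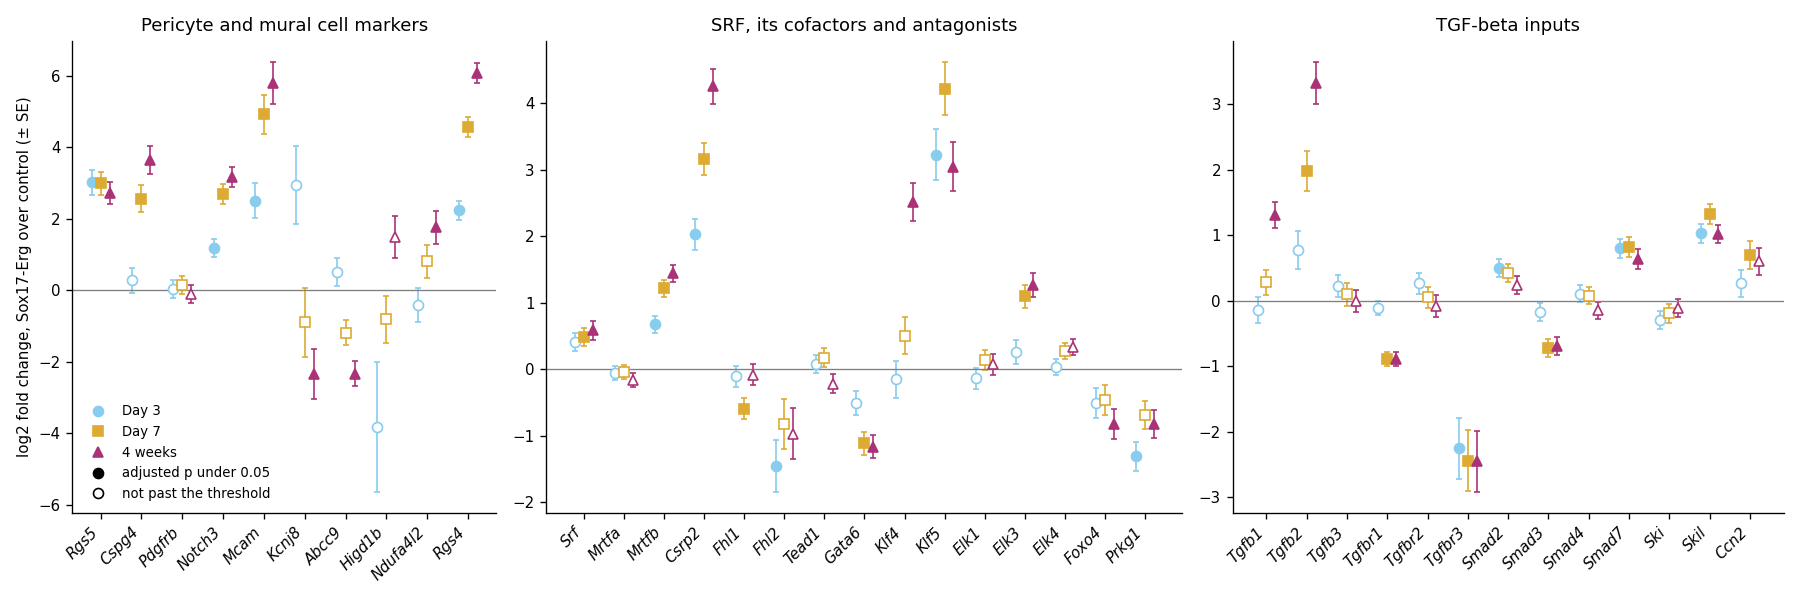
Log2 fold change of Sox17-Erg over control samples (± SE of the edgeR fit) for 10 mural cell markers, 15 genes of SRF and its cofactors, and 13 of the 14 TGF-beta genes, at Day 3 (circles), Day 7 (squares) and 4 weeks (triangles). Filled symbols passed an adjusted p of 0.05. *Rgs4* and *Mcam* reach 6.08 and 5.80 at 4 weeks, and *Mrtfb*, *Csrp2*, *Klf5* and *Skil* are filled at all 3 time points.

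Other cell types that the cultures could hold were followed by 10 markers each, against shares of all genes called higher of 7.19%, 9.48% and 11.9% and called lower of 5.13%, 7.93% and 11% at the 3 time points. Cardiomyocyte markers summed to 628 to 1535 CPM in control and 333 to 684 CPM in Sox17-Erg libraries. Most of that sum was the troponin *Tnnt2*, at 526 to 1431 CPM in control and 298 to 665 CPM in Sox17-Erg libraries, which was called lower at Day 3 (adjusted p = 0.0072) but not at Day 7 or 4 weeks (adjusted p = 0.076 and 0.14). By gene, 2, 3 and 5 of 10 were lower at Day 3, Day 7 and 4 weeks and none higher by edgeR or DESeq2, nor at an unadjusted p under 0.05. At 4 weeks the atrial light chain *Myl7* (-3.65, adjusted p = 0.011), the heavy chain *Myh6* (-3.16, adjusted p = 0.0025) and the cardiac troponin *Tnni3* (-2.05, adjusted p = 0.0033) were among the lower ones. Epicardial and mesothelial markers were also lower, 1, 6 and 9 of 10, with *Krt19* at -3.02 at Day 7 (adjusted p = 0.013) and *Lrrn4* at -2.87 at 4 weeks (adjusted p = 0.0056), and their sums were 456 to 1908 CPM in control and 221 to 425 CPM in Sox17-Erg libraries. Endothelial markers were higher in 4, 5 and 6 of the 9 that passed the filter, led by *Cdh5* at 4 weeks (10.17, adjusted p = 0.0027), with sums of 19.0 to 59.9 CPM against 313 to 707 CPM. Of the fibroblast markers 1, 3 and 4 of 10 were lower, among them *Lum* (-3.39, adjusted p = 0.0099) and *Dcn* (-3.31, adjusted p = 0.0036) at 4 weeks. Their log2 fold changes were positive for 2, 4 and 3 of the 10. Of these edgeR called *Postn*, periostin, a matrix protein of activated fibroblasts, at Day 7 and 4 weeks (2.69 and 4.74, adjusted p = 0.00039 and 1.9e-05), while DESeq2 called 2 higher at Day 7 and 1 at 4 weeks. None of the 10 macrophage and leukocyte markers was called by edgeR or DESeq2 at any time point or had an unadjusted p under 0.05, but their sums differed between libraries. At Day 7 they were 915 and 1316 CPM in control against 282 and 455 CPM in Sox17-Erg libraries, without overlap, and all 10 log2 fold changes were negative, with a median of -1.40. At 4 weeks they were 47.8 and 432 CPM against 69.7 and 347 CPM. The part of these markers in the contractile genes' values was not tested.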

How the data were processed

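Stranded mRNA libraries from mouse cardiac fibroblast cultures were sequenced as paired 50-base reads, converted with bcl2fastq 2.20.0, trimmed for GC content with BBDuk and quantified with Salmon against mm10. The Salmon version and annotation are not given in the sources used here. The authors deposited estimated counts per gene, rounded to whole numbers and not scaled for library size. Symbols, positions and overlaps came from GENCODE M21 (GRCm38), which held 35422 of the 35727 genes.

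The test was edgeR's quasi-likelihood F-test (edgeR 4.0.16 in R 4.3.3) with TMM factors. The filter filterByExpr (minimum count 10, minimum total 15) kept 15506 genes. Each group had its own mean, which left 6 residual degrees of freedom. A call needed a p under 0.05 after Benjamini-Hochberg adjustment over the 15506 genes. The code was tested on simulated data. Single genes were also tested by exact permutation within time points, and within same-numbered pairs. With 2 libraries against 2 at 1 time point such a test cannot go below 0.33. DESeq2 1.42.0 was an alternative, and figures were drawn with matplotlib 3.10.9. A count of 3 corresponds to 0.075 to 0.15 CPM.

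Groups and replicate numbers came from the sample labels. Samples with the same number deviated together from their group means (correlations of 0.19, 0.30 and 0.17 over 15506 genes at Day 3, Day 7 and 4 weeks), so the numbers were taken to pair the samples. Replicates of every group differed by over 2-fold in 1052 to 1472 genes.

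The 10 genes and the comparison lists were chosen with earlier results of these data known. Of the other lists, up to 4 genes per list and direction with the largest change past the threshold were named, with *Srf*, *Mrtfa*, *Mrtfb*, the actin paralogs and the 5 genes nearest *Acta2*. *Pdgfrb*, *Thy1*, *Tnnt2* and *Pcsk7* were named outside this rule, after their values were seen. A gene that the rule covers is not reported here.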

Additional observations from a re-analysis of the deposited data

Results flagged for a closer look

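*Myh11* stood out because its response to Sox17-Erg differed between time points. The Sox17-Erg minus control difference was 3.12 ± 0.41 (SE) log2 units larger at 4 weeks than at Day 3 (adjusted p = 0.0065, edgeR interaction test over all genes). Both Sox17-Erg libraries were below both control libraries at Day 3 and above both at 4 weeks. The difference passed the test with each of the 12 libraries left out in turn, with values from 2.79 to 3.64 and adjusted p from 0.0083 to 0.032. No group was screened for a single outlying library, because each held 2.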

How the results depend on the processing

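Of the 10 contractile genes, 5 were higher in Sox17-Erg samples at Day 7 and 5 at 4 weeks. Without the filter on low counts 8 were higher at Day 7, and 1 was higher and 1 lower at Day 3. With each time point fitted alone, or at an adjusted p under 0.01, 1 was higher at Day 7. Leaving out 1 library gave 1 to 7 at Day 7 and 2 to 6 at 4 weeks. Without the second control library or the first Sox17-Erg library of Day 7, *Myh11* was the 1 gene called at Day 7. Without either control library of Day 3, the first Sox17-Erg library of Day 3 or either Sox17-Erg library of 4 weeks, *Acta2* and *Cnn1* lost their Day 7 call and 3 were left. Without the first control library of 4 weeks, *Myh11* and *Myl9* were the 2 called at 4 weeks. The cause of these changes was not tested, apart from the smaller number of samples.

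With the replicate block within each time point, 1 gene was higher (*Cnn1*) and 1 lower (*Myh11*) at Day 3. The same fit called 8 genes higher at Day 7 and again 8 at 4 weeks. With the replicate block over all libraries, *Actg2* in control samples from Day 3 to 4 weeks lost its call, and it changed no other call on the 10 genes. Swapping labels only within the replicate pairs, a test chosen after seeing the data, took the exact permutation p over all time points of *Tagln* (difference 1.01 log2 units) from 0.074 to 0.031 and that of *Myocd* (1.19) from 0.037 to 0.094, and the other 8 genes stayed on their side of 0.05.

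Over time in control samples, the genes lower at Day 7 than at Day 3 numbered 5, and 8 by DESeq2, 9 without the filter, 0 at an adjusted p under 0.01, 3 with a log2 change of at least 1, and 0 to 6 with 1 library left out. Those lower at 4 weeks than at Day 3 numbered 4, 7 by DESeq2, 7 without the filter, and 2 to 6 with 1 library left out. The 1 higher at 4 weeks than at Day 7 gave 0 at 0.01 and 0 to 1 with 1 library left out. In Sox17-Erg samples, from Day 3 to Day 7, 1 gene was lower by DESeq2 and 2 without the filter, and the 1 higher gene gave 0 at 0.01 and 0 to 1 with 1 library left out. From Day 7 to 4 weeks 2 were higher by DESeq2 and 3 without the filter. From Day 3 to 4 weeks the 2 higher genes became 1 at 0.01 or with a log2 change of at least 1, and 1 to 2 with 1 library left out, and the 1 lower gene became 5 without the filter, 0 at 0.01 or with a log2 change of at least 1, and 0 to 2 with 1 library left out. Effects differed between Day 7 and Day 3 for 2 genes by DESeq2 and for 2 without the filter, and between 4 weeks and Day 3 for 3 and 4 genes, with 1 to 3 when 1 library was left out. The fold changes that turned sign were all near 0 and not called: *Myl9* at Day 3 (-0.0075 with each time point alone, -0.12 to 0.13 with 1 library left out), *Myocd* at Day 3 (-0.33 to 0.17), *Tpm2* at Day 7 (-0.24 to 0.46) and at 4 weeks (-0.37 to 0.35), and *Smtn* at 4 weeks (-0.18 to 0.34). DESeq2 size factors and a minimum count of 50 moved no count of contractile genes by over 1.5 times.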
